A study of Mus musculus with 9 samples.

Results

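Cadherins and non-clustered protocadherins are the cell surface receptors whose extracellular cadherin repeats bind calcium, and most of them join a cell to its neighbours. The members were chosen by symbol: every protein-coding gene named Cdh, Cdhr or Pcdh with a number, leaving out the clustered Pcdha, Pcdhb and Pcdhg genes, which gave 40 of the 47643 genes in the files. Of these, 28 are cadherins or cadherin-related genes and 12 are protocadherins. RNA had been sequenced from the 3′ end in tumour cells sorted from mouse pancreatic ductal adenocarcinoma (PDAC), in 6 KPF libraries of GFP+Yap+ cells and 3 KPYYF libraries of Tm+Yap− cells.

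Both genotypes carried 1 Trp53 allele flanked by frt sites (Trp53 frt/+), Pdx-Flp and the Rosa26 pair FSF-CreER and Dual, and only KPYYF mice also carried Yap flox/flox. Mice of both genotypes received tamoxifen diet after tumours had been left to form, and ages were not in the labels. In the Dual reporter, Flp turns on green fluorescence and Cre replaces it with the Tm red protein, so GFP+ cells had not recombined loxP sites and Tm+ cells had. Pdx-Flp acts in the pancreatic progenitors that give rise to duct, acinar and islet cells, so the reporter marks that lineage and not tumour cells alone. The Tm+ cells came from nodules that grew back in a subset of KPYYF mice. Genotype, reporter colour, recombination and Yap status changed together between the groups and cannot be told apart. The KPF libraries 4504h and 4504s carry the same mouse number, and the p-values measure the spread between libraries.

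Classical cadherins of type I hold epithelial cells together (Cdh1, E-cadherin) or are found in neural and mesenchymal cells (Cdh2, N-cadherin). Their intracellular tails bind β-catenin, plakoglobin and p120-catenin, and α-catenin couples that complex to actin. In epithelial to mesenchymal transition, E-cadherin is typically lost and N-cadherin often gained, which is known as the cadherin switch, and type II cadherins such as Cdh6 and Cdh11 mark other changes of cell state. Non-clustered protocadherins adhere more weakly, do not bind β-catenin, and are best known from the developing brain. The comparison of KPYYF with KPF cells asks whether the set of cadherin genes differed after Yap loss, and whether 1 classical cadherin took the place of another.

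The libraries held 8116539 to 9635514 reads on genes, and a count of 3 corresponded to 0.291 to 0.436 CPM (the read count scaled to a common library size after TMM normalization), the floor below which levels are not read here. The deleted gene matched the labels: Yap1 stood at 99.0 ± 41.7 CPM (SD, n = 6) in KPF and at 0.711, 2.84 and 7.10 CPM in the KPYYF libraries 4449, 4891 and 4938 (log2 fold change −4.79, SE 0.72, quasi-likelihood test of edgeR, p-values adjusted by Benjamini-Hochberg, adjusted p = 0.0159). Summed levels of 8 epithelial markers (keratins, Epcam, claudins and Sox9) ranged from 3129 to 9209 CPM in KPF and from 538 to 1918 CPM in KPYYF, without overlap, and fibroblast markers from 411 to 5485 CPM against 1127 to 3109 CPM. Epithelial markers were thus present in both groups. Immune marker sums spanned 401 to 7356 CPM in KPF and 333 to 676 CPM in KPYYF, acinar 63.9 to 19010 against 69.8 to 5191 CPM, islet 2.45 to 65.2 against 2.62 to 11.1 CPM, mesothelial 365 to 2740 against 49.1 to 211 CPM, pericyte 26.5 to 147 against 33.9 to 151 CPM, and endothelial 83.2 to 311 against 98.6 to 182 CPM. Single libraries set some of these extremes. The highest immune sum was in KPF 4601, with the next KPF library at 1243 CPM. The highest acinar sum was in KPF 4504s, with the next KPF library at 950 CPM. In KPYYF the acinar sum was 5191 CPM in 4449 against 82.8 and 69.8 CPM in 4891 and 4938. Of Schwann genes, S100b stood at 15.7 to 90.6 CPM in KPF and 0.545 to 7.34 CPM in KPYYF (log2 −3.84, edgeR adjusted p = 0.0357) and Mbp at 14.3 to 190 against 9.71 to 12.9 CPM (log2 −2.87, edgeR adjusted p = 0.0618), both without overlap. Sox10 and Foxd3, the defining Schwann factors, and the acinar gene Amy2a5 were at 0 in all 9 libraries, and Iapp, Gpm6a and Cd79a were at 0 in the 3 KPYYF libraries. The pericyte and endothelial sums did not show the changes of single genes. Of 5 tested pericyte genes, 2 had positive and 3 negative log2 fold changes. Cspg4 was higher (log2 4.08, edgeR adjusted p = 0.0351) and Rgs5 lower (log2 −2.52, edgeR adjusted p = 0.113), both without overlap. Of 6 tested endothelial genes, 5 were negative and 1, Flt1, positive (median −1.32), and Kdr was lower without overlap. The part of these other cells in the differences given here was not tested. All 3 KPYYF libraries held 3452 or more reads of Xist, the RNA of the inactive X chromosome in females, and 3 of the 6 KPF libraries held 71 to 159.

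In KPYYF cells the level of E-cadherin RNA fell, while N-cadherin RNA stood within the KPF range in 2 of the 3 libraries and below it in the third. P-cadherin, LI-cadherin, Cdh6, the microvillar Cdhr2 and protocadherin 1 were lower in every KPYYF library than in any KPF library, and protocadherin 17 was higher in every one, but these 6 did not pass the adjustment over all genes. For Cdhr2 that separation lay at the floor, with 3 reads in KPF 4601 against 2 in KPYYF 4449. Of the 40 members, 35 had at least 1 read and 20 passed the filter of 100 counts summed over the 9 libraries. Cdh1 alone had an adjusted p under 0.05 and was lower in KPYYF, where 0.794% of the 14105 genes tested were called lower, and no member was called higher, where 0.305% of all genes were. The study's methods called genes with DESeq2 at p under 0.05 and over 2-fold, and here these cutoffs were applied to unadjusted edgeR p-values. By this rule, called the methods' rule below, 6 of the 20 were lower (Cdh1, Cdh3, Cdh6, Cdh17, Cdhr2 and Pcdh1) against 9.2% of all genes tested. The higher ones were 2 (Pcdh15 and Pcdh17) against 4.2%. The groups did not overlap in 6 members that were lower, the same 6 with Cdhr2 counted, against 5.18% of all genes, and in 1 that was higher, Pcdh17, against 3.92%. Under DESeq2, 2 of the 19 members with an adjusted p were called higher, beside 1.96% of all genes, and 6 lower, beside 6.75%. By the methods' rule on DESeq2 p-values, 7 of 19 were lower (the 6 above and Cdh11), beside 12.4% of all genes, and 2 higher, beside 4.63%. Cdh15, Pcdh11x and Pcdh15 passed the filter through 1 KPYYF library each and Pcdh20 through KPYYF 4938 and KPF 4435, so counts over the 20 describe those genes only.

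**Figure D1:**
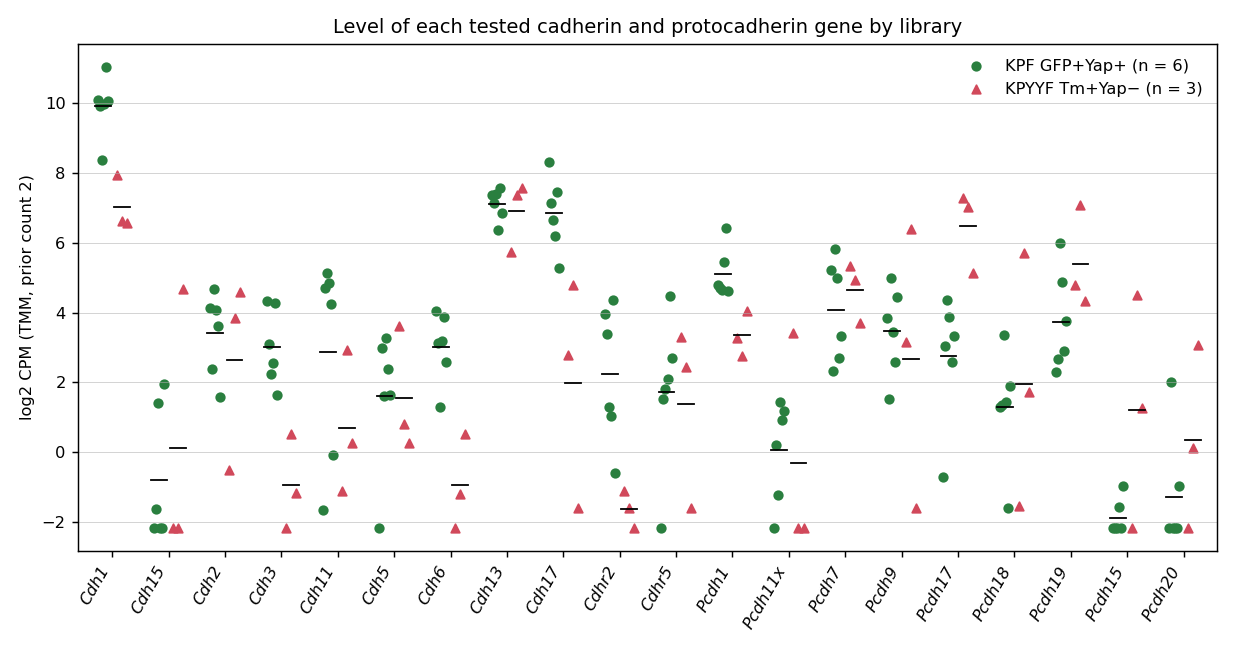
Level of each tested member in every library, as log2 CPM (TMM-scaled, prior count 2) on the vertical axis, with 6 KPF points and 3 KPYYF points for each gene. Cdh1 was the highest member in all 6 KPF libraries, and its 3 KPYYF points lie below all 6.

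Of the 11 tested Cdh and Cdhr genes, 9 had a negative and 2 a positive log2 fold change, with a median of −2.67, and of the 9 tested Pcdh genes 1 was negative and 8 positive, with a median of 1.57, beside a median of −0.07 over all genes tested (6587 positive, 7518 negative). These counts and medians describe the genes that passed the filter and support no direction of the families, since some passed through the group in which they were high, among them Pcdh15 (225 of 228 reads in KPYYF), Cdhr2 (482 of 485 in KPF), Cdh3 (576 of 589 in KPF) and Cdh6 (523 of 536 in KPF). The median of the Pcdh genes went down to 0.16 without KPYYF 4891, and none of the 9 passed the adjustment. The 28 Cdh and Cdhr genes summed to 680 to 2575 CPM in KPF and to 334, 327 and 336 CPM in KPYYF, without overlap. The 12 Pcdh genes summed to 54.7 to 207 CPM in KPF and to 250, 463 and 99.9 CPM in KPYYF 4449, 4891 and 4938, so that 2 of the 3 KPYYF libraries lay above the KPF range.

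**Figure D2:**
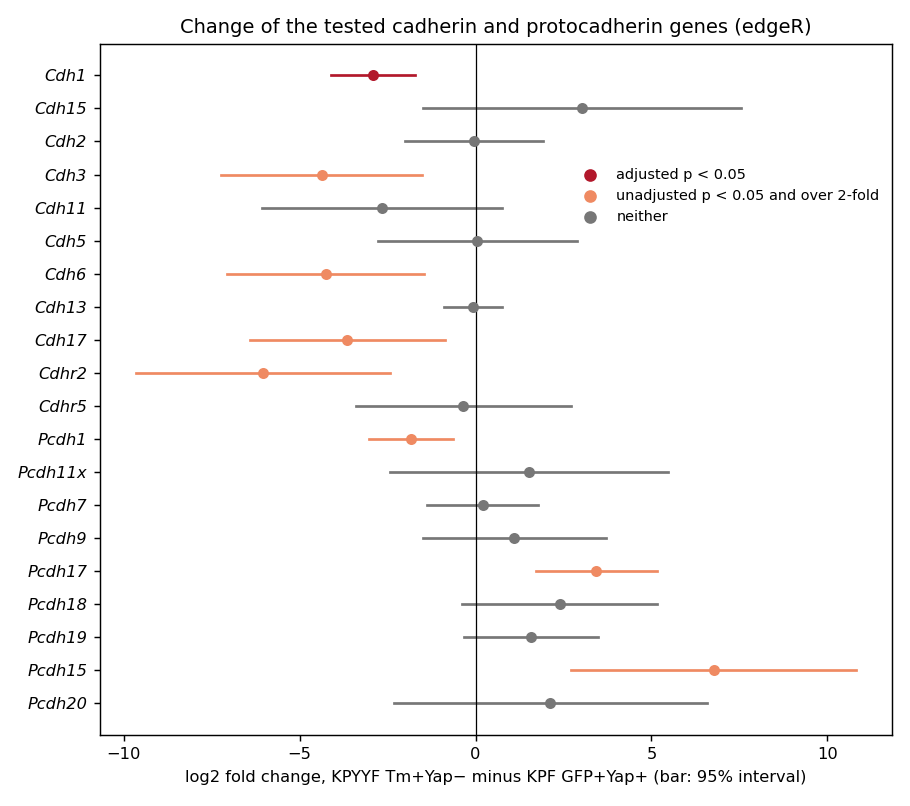
Log2 fold change of each tested member, KPYYF minus KPF, on the horizontal axis with its 95% interval from edgeR as the bar, coloured by the call. Cdh1 alone passed the adjustment, at −2.92, and the widest intervals belong to genes read in few libraries such as Cdh15 and Pcdh15.

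Promoter windows from RefSeq (GRCm38.p6, 250 bases before to 50 after the start) were matched to 27 of the 40 members. Of the 8 genes that met the methods' rule, the 4 that had a window are shown, 2 that were lower and 2 that were higher. No window was available for Cdh1, Cdh3, Cdh17 and Pcdh1, so their promoters were not searched. The E-box of the Snail and Zeb repressors and the DNA core bound by the TEAD partners of Yap were looked for in the windows. E-boxes with other letters were not searched. Capitals mark an E-box, searched as CAGGTG on both strands (reverse CACCTG); the TEAD core was searched as CATTCC (reverse GGAATG), and the 2 motifs share no match. The windows lie at chr15:13173626-13173925 on the minus strand (Cdh6), chr13:54701213-54701512 on the plus strand (Cdhr2), chr10:73821617-73821916 on the plus strand (Pcdh15) and chr14:84443313-84443612 on the plus strand (Pcdh17), each 5′ to 3′, with its last 50 bases inside the transcript. The Pcdh15 start lies inside the gene as GENCODE draws it, which begins at base 73099342, and the other 3 lie at the gene's start.
Cdh6: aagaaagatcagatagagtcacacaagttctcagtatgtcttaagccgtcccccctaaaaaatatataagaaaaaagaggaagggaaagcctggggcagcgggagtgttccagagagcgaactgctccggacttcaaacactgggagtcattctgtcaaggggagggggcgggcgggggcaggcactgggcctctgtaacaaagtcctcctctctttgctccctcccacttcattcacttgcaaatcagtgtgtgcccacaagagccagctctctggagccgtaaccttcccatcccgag
Cdhr2: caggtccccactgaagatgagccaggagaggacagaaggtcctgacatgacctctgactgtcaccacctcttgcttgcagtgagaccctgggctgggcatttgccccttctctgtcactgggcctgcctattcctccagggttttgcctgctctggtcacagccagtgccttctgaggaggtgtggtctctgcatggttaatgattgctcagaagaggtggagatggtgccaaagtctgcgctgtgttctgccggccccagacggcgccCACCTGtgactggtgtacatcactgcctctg
Pcdh15: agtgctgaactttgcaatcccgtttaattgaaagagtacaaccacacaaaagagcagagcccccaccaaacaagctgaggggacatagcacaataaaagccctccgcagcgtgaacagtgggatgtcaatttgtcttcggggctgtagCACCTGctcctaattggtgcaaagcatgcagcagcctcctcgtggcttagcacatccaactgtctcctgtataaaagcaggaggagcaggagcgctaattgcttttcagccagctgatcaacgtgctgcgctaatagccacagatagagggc
Pcdh17: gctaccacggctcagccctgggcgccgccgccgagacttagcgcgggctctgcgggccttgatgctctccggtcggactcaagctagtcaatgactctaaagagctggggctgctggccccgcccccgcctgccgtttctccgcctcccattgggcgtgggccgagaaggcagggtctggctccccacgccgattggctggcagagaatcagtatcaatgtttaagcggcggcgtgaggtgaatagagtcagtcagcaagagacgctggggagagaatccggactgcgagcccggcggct

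The E-box letters stood once in the Cdhr2 window and once in the Pcdh15 window, a gene that was lower and a gene that was higher, and in neither the Cdh6 nor the Pcdh17 window. Over the members with a window 6 of 27 held it (22.2%), Cdh7, Cdhr1, Cdhr2, Cdhr4, Pcdh7 and Pcdh15, and 6640 of all 32851 windows did (20.2%). The TEAD core was in none of the 4 printed windows, in 3 of the 27 members (11.1%), Cdh9, Cdh10 and Cdh20, and in 4817 of all windows (14.7%). The 27 members had 30 windows, and a member counted once if any of its windows matched, whereas the shares of all promoters count windows. With that difference in unit, both shares were near those of all promoters.

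Among the type I cadherins, Cdh1 (ENSMUSG00000000303, mm10 chromosome 8, 106603351 to 106670246, plus strand) was the most abundant member. In KPF it stood at 332 CPM (4504h), a median of 1047 CPM and 2100 CPM (4515), and in KPYYF at 245, 98.0 and 93.8 CPM in 4449, 4891 and 4938. Every KPYYF library lay below every KPF library, and 4449 was the highest of the 3. The mean was 1099 ± 568 CPM (SD, n = 6) in KPF and 146 ± 86.0 CPM (SD, n = 3) in KPYYF, a 7.55-fold lower level by the fit (log2 fold change −2.92, SE 0.55, 95% interval −4.12 to −1.72, edgeR adjusted p = 0.0351). The direction held in all 17 alternatives, but the adjusted p rose above 0.05 when any 1 of 5 libraries was left out, to 0.0554 without KPF 4269, 0.0667 without KPF 4435, 0.0592 without KPF 4504s, 0.111 without KPYYF 4891 and 0.114 without KPYYF 4938, and to 0.126 among the libraries with over 1000 Xist reads. In bulk RNA, fewer cells with E-cadherin and less of its RNA in each cell cannot be told apart, and the 8 epithelial markers, which leave out Cdh1, all had negative log2 fold changes as well (median log2 fold change −2.30, 1 of 8 with adjusted p under 0.05).

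Cdh3, P-cadherin of basal and progenitor epithelium, lies just before Cdh1 on the same strand (106510891 to 106557297). It stood at 2.91 CPM (4601), a median of 6.98 CPM and 20.1 CPM (4269) in KPF, and at 0, 1.20 and 0.219 CPM in KPYYF 4449, 4891 and 4938. Of the KPYYF libraries only 4891 rose above the floor, and the groups did not overlap. The log2 fold change was −4.37 (SE 1.32, unadjusted p = 0.00554, edgeR adjusted p = 0.127), over 576 reads in KPF and 13 in KPYYF. DESeq2 gave Cdh3 an adjusted p of 0.00132.

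Cdh2, N-cadherin, was read at 2.76 CPM (4601), a median of 14.2 CPM and 25.3 CPM (4504h) in KPF, and at 0.474, 14.1 and 24.0 CPM in KPYYF 4449, 4891 and 4938. Libraries 4891 and 4938 lay inside the KPF range, and 4449, with 4 reads, lay below it. The log2 fold change was −0.03 (95% interval −1.99 to 1.93, edgeR adjusted p = 0.991), and its sign turned in 5 of 17 alternatives, to 0.54 without 4449.

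Cdh15, M-cadherin of muscle precursors, had 25.4 CPM in KPYYF 4938 and none in the other two, against 0 to 3.63 CPM in KPF (log2 fold change 3.03, SE 2.08, edgeR adjusted p = 0.523). Cdh4, R-cadherin, had 3 reads over all 9 libraries. Cdh15 was therefore a feature of 1 library and not of the group.

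In type II, Cdh6, K-cadherin of kidney and neural crest, stood at 2.24 CPM (4504h), a median of 8.72 CPM and 16.3 CPM (4269) in KPF and at 0, 0.218 and 1.20 CPM in KPYYF 4449, 4891 and 4938. Every KPYYF library lay below every KPF library. The log2 fold change was −4.26 (SE 1.30, unadjusted p = 0.00588, edgeR adjusted p = 0.128), and the DESeq2 adjusted p was 0.00124. Cdh11, OB-cadherin of mesenchyme and activated fibroblasts, ranged from 0.0970 CPM (4269) to 34.9 CPM (4504h) in KPF and stood at 0.237, 7.31 and 0.984 CPM in KPYYF (−2.67, SE 1.55, edgeR adjusted p = 0.443), and the groups overlapped. DESeq2 gave Cdh11 a log2 fold change of −2.65 with an unadjusted p of 0.0300 and an adjusted p of 0.182. The 2 KPF libraries in which Cdh11 was near 0, 4269 at 0.0970 CPM and 4601 at 0.727 CPM, also had the lowest fibroblast marker sums, 411 and 553 CPM against 1920 to 5485 CPM in the other 4, and among KPYYF libraries 4891 was the highest in both. The order differed elsewhere: KPYYF 4449 had a higher sum than 4938 (1386 against 1127 CPM) but less Cdh11. In KPF the highest sum was in 4504s and the highest Cdh11 level in 4504h. The part of fibroblasts was not tested.

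Cdh5, VE-cadherin of endothelium, stood at 12, 1.53 and 0.984 CPM in KPYYF 4449, 4891 and 4938 and at 0 to 9.43 CPM in KPF (log2 fold change 0.06, 95% interval −2.78 to 2.90, edgeR adjusted p = 0.990). The endothelial marker sums were 98.6, 114 and 182 CPM in the same KPYYF order, of which Flt1 alone gave 95.7, 101 and 170 CPM. In KPYYF 4449, where Cdh5 was highest, Pecam1 stood at 2.84 CPM and Kdr, Tie1, Emcn and Vwf at 0. KPF 4269, in which Cdh5 was at 0, had the lowest sum of the 9, 83.2 CPM. The part of endothelial cells was not tested. The 10 other type II genes failed the filter: Cdh10 had 73 reads in all (57 in KPF and 16 in KPYYF), Cdh24 52, of which 51 were in KPYYF 4449, Cdh7 28, of which 19 were in KPYYF 4891, Cdh22 7, Cdh12 5 and Cdh8 4, while Cdh9, Cdh18, Cdh19 and Cdh20 had none. Most or all reads of Cdh24, Cdh7 and Cdh22 thus came from 1 KPYYF library each, the Cdh22 reads from 4891. All Cdh12 reads came from KPF 4504s, all Cdh8 reads from KPF 4435, and most Cdh10 reads from KPF, so these genes shared no direction.

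The ratio of Cdh1 to Cdh2 reads was taken within each library from log2 CPM with a prior count of 2. On the log2 scale it was 5.97, 7.54, 3.70, 5.93, 7.43 and 8.50 in KPF 4269, 4435, 4504h, 4504s, 4515 and 4601, and 8.46, 2.78 and 1.95 in KPYYF 4449, where Cdh2 had 4 reads, 4891 and 4938. In KPYYF, 2 libraries lay below all of KPF and the third beside its top. The means were 6.51 ± 1.70 (SD, n = 6) and 4.40 ± 3.54 (SD, n = 3), a difference of −2.11 (two-sided exact permutation test over 84 splits, p = 0.298, where the smallest possible p is 0.0119). Without KPYYF 4449 the difference was −4.14 (exact permutation p = 0.0357, the smallest that the remaining libraries allow).

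The share of Cdh1 in the reads of all 18 type I and type II cadherins was 82.0% (4504h) to 98.1% (4601) in KPF, with a median of 94.8%. It was 92.9% (exact Clopper-Pearson 95% interval 91.8 to 93.9) in KPYYF 4449, 77.2% (74.7 to 79.6) in 4891 and 63.9% (61.3 to 66.5) in 4938, intervals that cover counting error only. Libraries 4891 and 4938 lay below all of KPF, and 4449 lay within it. The difference of means was −15.3 percentage points (93.3 ± 5.81 against 78.0 ± 14.5, SD, n = 6 and n = 3, two-sided exact permutation p = 0.0238). It was −7.76 points with Cdh1, Cdh2, Cdh3, Cdh6 and Cdh11 alone in the denominator (exact permutation p = 0.262), −8.26 without KPYYF 4938 (exact permutation p = 0.0714) and −14.9 without KPYYF 4891 (exact permutation p = 0.0714).

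The lower share did not come with more of the other classical cadherins. Without Cdh1, the 17 others summed to 20.8 to 73.1 CPM in KPF and to 18.7, 28.9 and 52.9 CPM in KPYYF 4449, 4891 and 4938, so that no KPYYF library exceeded the KPF range. The gene that ranked next to Cdh1 differed among the KPYYF libraries, Cdh5 in 4449 (4.54% of classical cadherin reads), Cdh2 in 4891 (11.1%) and Cdh15 in 4938 (17.3%, with Cdh2 at 16.4%). In KPF it was Cdh3 in 4269 and 4515, Cdh11 in 4435, 4504h and 4504s, and Cdh6 in 4601. No single classical cadherin was higher in all 3 KPYYF libraries than in KPF.

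**Figure D3:**
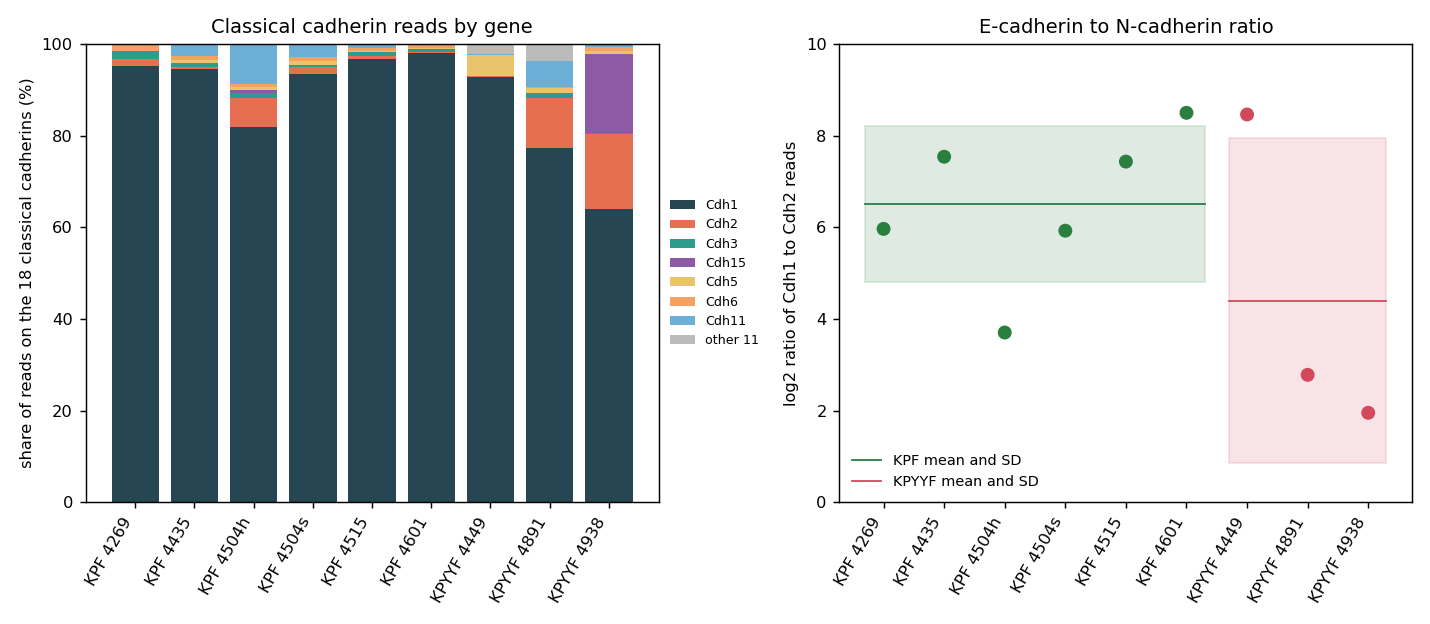
Left, share in percent of the reads on the 18 classical cadherins taken by each gene in each library; right, log2 ratio of Cdh1 to Cdh2 reads per library, with the mean (line) and SD (band) of each group. Cdh1 took 63.9% to 92.9% of the reads in KPYYF against 82.0% to 98.1% in KPF, and the ratio in KPYYF 4449, 8.46, lies with the highest KPF libraries.

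Cdh13, T-cadherin, has no intracellular tail and is held in the membrane by a lipid (GPI) anchor, and it also binds adiponectin. It stood at 81.4 CPM (4504s), a median of 152 CPM and 188 CPM (4515) in KPF and at 53.5, 166 and 190 CPM in KPYYF 4449, 4891 and 4938. The log2 fold change was −0.07 (95% interval −0.90 to 0.77, edgeR adjusted p = 0.960), the narrowest interval of the 20 members, and its sign turned in 4 of 17 alternatives. With Cdh1 low, Cdh13 was the member with the most reads in KPYYF 4891 and 4938, while Cdh1 kept that place in 4449 and in all 6 KPF libraries. The 3′ libraries give about 1 read site per transcript, so these levels were compared between genes without a correction for length.

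Cdh17, LI-cadherin of intestinal and gastrointestinal tumour epithelium, has 7 cadherin repeats and a short tail. It was read at 38.5 CPM (4601), a median of 121 CPM and 319 CPM (4269) in KPF and at 6.63, 27.3 and 0.109 CPM in KPYYF 4449, 4891 and 4938. The groups did not overlap, and 4938 held 1 read. The log2 fold change was −3.64 (SE 1.24, unadjusted p = 0.0154, edgeR adjusted p = 0.185), and the DESeq2 adjusted p was 0.0224. Cdh16, the kidney relative, had 1 read over all 9 libraries.

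Among the cadherin-related genes, Cdhr2 and Cdhr5 encode the partners that link the tips of neighbouring microvilli in the brush border. Cdhr2 stood at 0.436 CPM (4601), a median of 6.28 CPM and 20.2 CPM (4515) in KPF and at 0.237, 0.109 and 0 CPM in KPYYF 4449, 4891 and 4938. It totalled 482 reads in KPF and 3 in KPYYF, which gave a pooled ratio of 78.7 with a 95% interval of 26.8 to 383 for counting error only. The fitted log2 fold change was −6.04 (SE 1.68, 95% interval −9.66 to −2.42, unadjusted p = 0.00316, edgeR adjusted p = 0.105) and the DESeq2 adjusted p was 5.47e-04. The lowest KPF library held 3 reads, at the floor, and the highest KPYYF library held 2. Cdhr5 stood at 9.59, 5.23 and 0.109 CPM in KPYYF against 0 to 21.9 CPM in KPF (−0.35, 95% interval −3.41 to 2.70, edgeR adjusted p = 0.943). Its sign turned in 3 of 17 alternatives, and the interval is too wide to show whether Cdhr5 moved with Cdhr2. Cdhr4 had 13 reads, of which 12 were in KPYYF 4891, Cdhr1 5, Cdh23 3 and Cdhr3 1, and Cdh26 had none.

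Of the δ1 protocadherins, Pcdh1, found at epithelial junctions of the airway, stood at 24.1 CPM (4601), a median of 26.6 CPM and 85.5 CPM (4515) in KPF and at 9.47, 6.54 and 16.4 CPM in KPYYF 4449, 4891 and 4938. The groups did not overlap, and Pcdh1 was the 1 tested protocadherin with a negative fold change (log2 −1.83, SE 0.55, unadjusted p = 0.00528, edgeR adjusted p = 0.123, DESeq2 adjusted p = 0.0178). Pcdh7 ranged from 4.8 to 55.8 CPM in KPF and from 12.9 to 39.8 CPM in KPYYF (0.20, 95% interval −1.38 to 1.78, edgeR adjusted p = 0.937). Pcdh9 reached 84.3 CPM in KPYYF 4891 against 8.76 and 0.109 CPM in 4449 and 4938, and ranged from 2.66 to 31.8 CPM in KPF (1.11, SE 1.18, edgeR adjusted p = 0.717). Pcdh11x, on the X chromosome, had 10.5 CPM in KPYYF 4449 and none in the other two, against 0 to 2.50 CPM in KPF (1.52, SE 1.83, edgeR adjusted p = 0.750).

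The δ2 protocadherin Pcdh17 (ENSMUSG00000035566, chromosome 14, 84443563 to 84539002, plus strand), known from axon growth and synapses, was the 1 member that was higher without overlap. It was read at 0.388 CPM (4269), a median of 8.85 CPM and 20.5 CPM (4504h) in KPF and at 154, 129 and 34.6 CPM in KPYYF 4449, 4891 and 4938. Every KPYYF library lay above every KPF library. The means were 9.77 ± 6.97 CPM (SD, n = 6) and 106 ± 63.0 CPM (SD, n = 3), a log2 fold change of 3.44 (SE 0.79, 95% interval 1.71 to 5.16, unadjusted p = 0.00109, edgeR adjusted p = 0.0658). The adjusted p was 3.13e-04 with DESeq2 and 0.0276 without KPF 4269, the library at 0.388 CPM, and above 0.05 in the other 15 alternatives, up to 0.159. Within each library, Pcdh17 took 0.454% to 14.6% of all protocadherin reads in KPF and 61.6%, 27.9% and 34.7% in KPYYF, again without overlap.

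Pcdh19 (X-linked) and Pcdh18, the other δ2 genes that passed the filter, were highest in KPYYF 4891. Pcdh19 stood at 27.2, 136 and 19.8 CPM in KPYYF 4449, 4891 and 4938 against 4.66 to 63.1 CPM in KPF (log2 fold change 1.57, SE 0.86, edgeR adjusted p = 0.411). Pcdh18 stood at 0.118, 51.6 and 3.06 CPM against 0.110 to 10.1 CPM (2.39, SE 1.27, edgeR adjusted p = 0.387), and its sign turned to −1.11 without 4891. Pcdh10 had 42 reads over the 9 libraries, and Pcdh8 had 23, all in KPYYF 4938.

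Pcdh15, a component of the tip links of sensory hair cells, had 22.4 CPM in KPYYF 4891, 2.19 CPM in 4938 and 0 in 4449. In KPF it stood at or below 0.291 CPM in all 6 libraries, under the floor. It totalled 225 reads in KPYYF, of which 205 came from 4891, and 3 in KPF, a pooled ratio of 153 with a 95% counting interval of 51.7 to 748. That interval covers counting error only and leaves out the spread between libraries. The fitted log2 fold change was 6.77 (SE 1.88, 95% interval 2.71 to 10.8, unadjusted p = 0.00319, edgeR adjusted p = 0.105), with an adjusted p of 0.00839 from DESeq2, 0.0472 with no filter and 0.0407 without KPYYF 4449. Pcdh20 had 8.20 CPM in KPYYF 4938 and 3.78 CPM in KPF 4435 and at most 0.872 CPM elsewhere (2.13, SE 2.06, edgeR adjusted p = 0.678), and the 17 reads of Pcdh12, an endothelial protocadherin, all came from KPF 4504s.

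**Figure D4:**
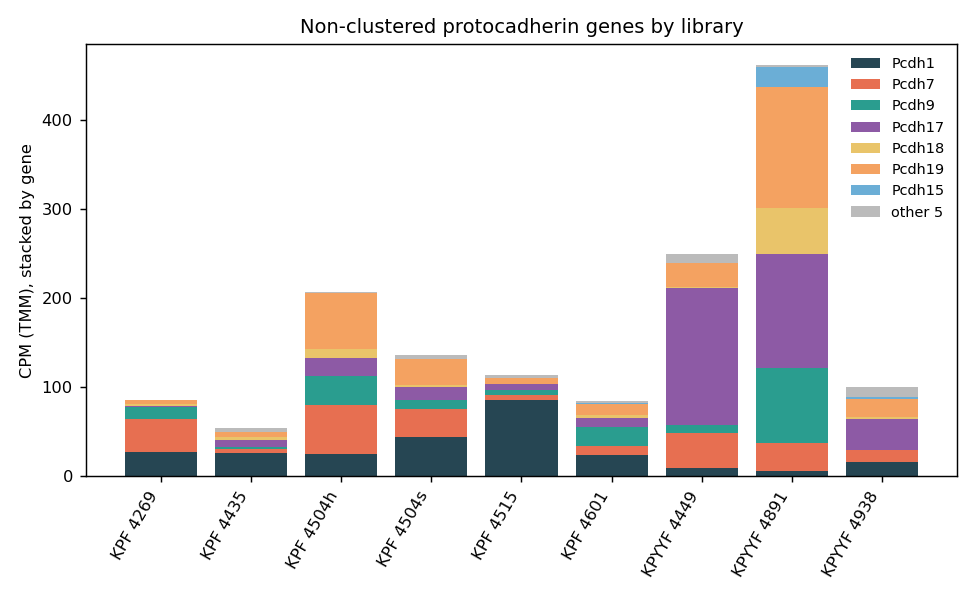
CPM (TMM-scaled) of the non-clustered protocadherin genes in each library, stacked by gene. The stacks reach 54.7 to 207 CPM in KPF and 250, 463 and 99.9 CPM in KPYYF, where Pcdh17 takes 27.9% to 61.6% of the reads and 4891 also holds most of the Pcdh9, Pcdh18 and Pcdh19 reads of the group.

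The related families gave fewer tested genes. Of the 57 clustered protocadherins, 8 passed the filter, with 2 positive and 6 negative log2 fold changes and a median of −1.56. Of these 8, 1 was lower by the methods' rule, beside 9.2% of all genes tested. Of the 12 Fat, Dachsous, Celsr and calsyntenin genes 5 were tested (2 positive, 3 negative, median −0.89). Of these 5, 1 was lower by that rule, beside the same 9.2%: Fat1, the giant cadherin upstream of Hippo signalling, at 43.9 to 428 CPM in KPF and 91.8, 39.6 and 51.2 CPM in KPYYF (log2 −1.69, SE 0.65, unadjusted p = 0.0245, edgeR adjusted p = 0.225). The groups overlapped for Fat1. Celsr2 was lower without overlap, at 2.24 to 9.41 CPM in KPF and 2.13, 0 and 1.86 CPM in KPYYF (edgeR adjusted p = 0.467). Neither list held a gene with an adjusted p under 0.05.

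Genes for the proteins that bind cadherin tails or share the junction were read from a list of 28. Of these catenin, nectin, linker and turnover genes, 26 were tested, of which 24 had a negative and 2 a positive log2 fold change (median −0.60), 1 was lower at an adjusted p under 0.05 and 4 were lower by the methods' rule, beside 0.794% and 9.2% of all genes tested. Ctnnb1, β-catenin, stood at 982 to 1974 CPM in KPF and 1448, 937 and 1019 CPM in KPYYF (log2 −0.29, SE 0.29, edgeR adjusted p = 0.691). Ctnna1, α-catenin, had a log2 fold change of −0.56 (SE 0.34, adjusted p = 0.456) and Ctnnd1, p120-catenin, of −0.82 (SE 0.52, edgeR adjusted p = 0.478). Jup, plakoglobin, stood at 233 CPM in KPYYF 4449 and at 30.0 and 53.2 CPM in 4891 and 4938, against 104 to 339 CPM in KPF (−0.93, SE 0.61, edgeR adjusted p = 0.50), and without 4449 its log2 fold change was −2.27 (adjusted p = 0.0498). For these 4 genes the sign held in all 17 alternatives.

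Nectin2, an immunoglobulin-type adhesion receptor of the same junction, fell from 51.9 to 140 CPM in KPF to 24.5, 3.71 and 15.3 CPM in KPYYF, without overlap (log2 −2.72, SE 0.58, edgeR adjusted p = 0.0422), although its adjusted p was above 0.05 in 9 of 17 alternatives, up to 0.146. Camsap3, which anchors microtubule minus ends at the junction, stood at 2.34 to 82.5 CPM in KPF and 2.72, 0.218 and 0.328 CPM in KPYYF (−4.77, SE 1.23, edgeR adjusted p = 0.0933). Ajuba, a LIM protein that binds α-catenin, stood at 18 to 37.6 CPM against 0.118, 5.13 and 6.34 CPM (−2.80, SE 0.82, edgeR adjusted p = 0.119), without overlap. Ctnnal1, an α-catenin relative, completed the 4 genes (−1.50, SE 0.66, unadjusted p = 0.0407, edgeR adjusted p = 0.278).

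**Figure D5:**
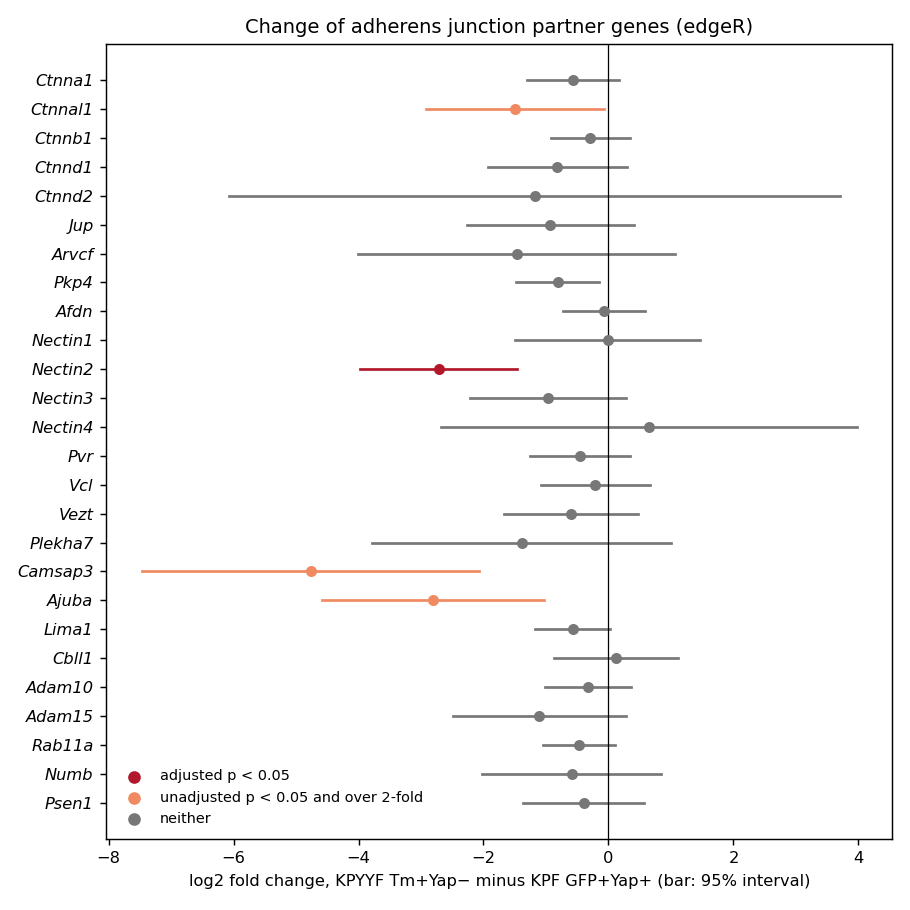
Log2 fold change, KPYYF minus KPF, of the tested adherens junction partner genes with 95% intervals from edgeR. Of 26 genes, 24 lie left of 0, and Nectin2 at −2.72 is the one that passed the adjustment.

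Of 7 genes for repressors that bind E-boxes of the Cdh1 promoter, 6 had a positive and 1 a negative log2 fold change (median 1.01). Twist2 rose from 0.110 to 8.26 CPM in KPF to 93.2, 158 and 159 CPM in KPYYF (log2 5.57, SE 0.95, edgeR adjusted p = 0.0277), with an adjusted p above 0.05 in 5 of 17 alternatives, up to 0.0777. Snai1 stood at 2.13 to 36.2 CPM against 39.0, 96.1 and 52.9 CPM (1.59, SE 0.64, unadjusted p = 0.0289, edgeR adjusted p = 0.241), also without overlap, and the estimates were 1.01 for Snai2, 0.88 for Zeb1, 0.15 for Zeb2, 1.13 for Twist1 and −0.08 for Tcf3. Any relation of these levels to Cdh1 was not tested.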

How the data were processed

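Total RNA had been extracted from sorted cells and made into QuantSeq 3′ forward libraries per the labels. The submitters' processing notes name STAR, HTSeq and the mm10 build, with versions not given in the sources used here; the methods text describes expression BeadChips for these cells, whereas the deposited files hold raw whole-number read counts per Ensembl gene, 1 file per library, which the authors had not normalized. Reads on genes were 37.3% to 42.0% of all counted reads, not uniquely aligned ones 43.8% to 53.4%, those on no feature 8.63% to 16.0% and ambiguous ones 0.231% to 0.312%; these summary lines were left out of library sizes. Symbols and coordinates came from GENCODE M21 (47224 of 47643 genes).

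The 14105 genes whose counts summed to 100 or more went into edgeR 4.0.16 (R 4.3.3): TMM scaling (factors 0.832 to 1.08), robust quasi-likelihood fit, KPYYF against KPF with no covariate, Benjamini-Hochberg adjustment over all genes (common biological coefficient of variation 0.825). The step was tested on simulated data. For single values per library, the difference of means was set against all 84 splits (exact permutation, two-sided). Alternatives were DESeq2 1.42.0, limma 3.58.1 voom with quality weights, RLE and upper quartile scaling, other filters, 4504h and 4504s summed, libraries with over 1000 Xist reads, and each library left out. All members are named; those past either call rule are given by library, the rest by fold change or summed counts; of the partner genes, 4 catenins and those past a rule are named. A further allele that both genotypes share and some marker genes are not reported here. Members, lists, cell markers and tests were chosen with earlier results of these data known. Same-strand genes overlap Pcdh7, Pcdh11x and Pcdh15, and reads shared with them cannot be told apart.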

Additional observations from a re-analysis of the deposited data

Results flagged for a closer look

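Within the 6 KPF libraries, 22 quantities (20 member levels, the Cdh1 to Cdh2 ratio and the Cdh1 share) were checked for a library far from the other 5 by Dixon's ratio of gap to range, and 4 passed the 95% limit; chance flags about 1 in 20 such groups. Cdh5 was low in KPF 4269, at −2.18 log2 CPM with the nearest library at 1.62 (ratio 0.697). It had no read there, so that value was set by the prior count. Pcdh17 was low in the same library, at −0.72 log2 CPM with the nearest at 2.58 (ratio 0.647), and its adjusted p without that library was 0.0276. Pcdh20 was high in KPF 4435, at 2.00 log2 CPM with the nearest at −0.97 (ratio 0.710). It had no read in KPF 4269, 4504h, 4504s and 4515, so its ratio also depended on the prior count. The rate of 1 in 20 need not hold for Cdh5 and Pcdh20. The Cdh1 share of classical cadherin reads was low in KPF 4504h, at 81.97% with the nearest at 93.48% (ratio 0.713), while 4504s, which carries the same mouse number, held that nearest value.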

How the results depend on the processing

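Members called higher at an adjusted p under 0.05 numbered 2 with DESeq2, 1 with no filter (0.384% of all genes) and 0 to 1 with 1 library left out (0.0433% to 0.542%), against 0; those called lower numbered 6 with DESeq2, 0 among libraries with over 1000 Xist reads (0.237%) and 0 to 1 with 1 library left out (0.0936% to 1.43%), against 1. By the methods' rule, 7 of 35 were higher with no filter (5.25% of all genes), 1 of 18 with filterByExpr (3.77%) and 1 to 4 with 1 library left out (4 without KPF 4504h, 1 without KPYYF 4891; 3.87% to 4.56%), against 2 of 20. Those lower by that rule numbered 5 to 7 in all 17 alternatives. The share of all genes lower by it ran from 6.78% among libraries with over 1000 Xist reads to 12.4% with DESeq2. The Cdh1 share difference was −7.76 points with 5 genes in the denominator, −12.0 with over 1000 Xist reads (exact permutation p = 0.200) and −22.7 to −8.26 with 1 library left out, and the Cdh1 to Cdh2 difference −4.14 to −0.89. Partner genes called lower at an adjusted p under 0.05 numbered 0 to 4 with 1 library left out (0.0936% to 1.43% of all genes) and 3 with DESeq2 (6.75%).

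Signs turned for genes whose main estimate had an interval across 0. Voom gave −1.10 for Cdh5, 0.25 for Cdh13, −2.99 for Pcdh11x and −1.59 for Pcdh9; summing 4504h and 4504s gave 0.15 for Cdh2; libraries with over 1000 Xist reads gave −0.48 for Cdh5, 0.092 for Cdh13, 0.57 for Cdhr5 and −0.14 for Pcdh7. With 1 library left out, log2 fold changes spanned −0.85 to 0.54 for Cdh2, −1.87 to 0.54 for Cdh5, −0.38 to 0.31 for Cdh13, −1.25 to 0.63 for Cdhr5, −0.15 to 0.64 for Pcdh7, −1.70 to 1.69 for Pcdh9 and −1.11 to 3.09 for Pcdh18. The causes were not tested. The Yap1 adjusted p was 0.0886 with voom and 0.0553 without KPYYF 4891. Members with under 100 reads were left out by the filter and compared only in the fit with no filter. No paired analysis was possible because no mouse number occurs in both groups.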
